A study of Mus musculus with 6 samples.

Results

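Brown fat thermogenic genes were followed in the mammary gland of female FVB/N wild-type mice as a set of 9 genes, Ucp1, Cidea, Cox7a1, Cox8b, Ppargc1a, Dio2, Prdm16, Zic1 and Otop1. They were taken by symbol from a table of gene counts, as 9 of its 25160 features. The rule for taking them used no measured value, but the set was chosen with earlier results of these data known. The fourth mammary glands, with their lymph nodes removed, came from 3 control mice given saline and from 3 mice given metformin, a biguanide drug used against type II diabetes, by intraperitoneal injection at 200 mg/kg per day from 8 to 18 weeks of age. No engineered allele was given for either group. Poly(A) RNA of each mouse was sequenced as a separate library, so that the 3 libraries of a group were 3 individual animals.

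Brown and beige adipocytes burn fuel to make heat. Cold activates sympathetic nerves, whose noradrenaline acts on beta-adrenergic receptors and raises cyclic AMP in the fat cell, which both releases fatty acids and switches on thermogenic genes. The heat comes from uncoupling protein 1, which lets protons return across the inner mitochondrial membrane without making ATP. The stroma of the mouse mammary gland is largely a white fat pad, in which multilocular cells that express Ucp1 can arise among the unilocular ones.

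All 9 genes were detected in every mouse, with a wide spread between mice of the same group. Ucp1 ranged 61.3-fold over the 6 mice. Ucp1, Cidea, Cox7a1, Cox8b and Otop1 were highest in the same mice, namely metformin-treated mouse 2, then control mouse 1, then metformin-treated mouse 3. No gene of the set passed the threshold for a difference between the groups, and the control and metformin values overlapped for all 9.

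To show control regions of genes that differed in their pattern, the 250 bases upstream of the RefSeq transcription start (GRCm38.p6) are printed 5′ to 3′ on the strand of the gene for 4 members. Ucp1 and Cox8b stand for the genes that shared an order of mice, and Ppargc1a and Dio2 are genes known to respond to cyclic AMP. Capitals mark matches to the cyclic AMP response element TGACGTCA, to its core TGACG, or to the TATA box forms TATAAA and TATATA, each searched on both strands.
Ucp1, chr8:83290098-83290347, plus strand: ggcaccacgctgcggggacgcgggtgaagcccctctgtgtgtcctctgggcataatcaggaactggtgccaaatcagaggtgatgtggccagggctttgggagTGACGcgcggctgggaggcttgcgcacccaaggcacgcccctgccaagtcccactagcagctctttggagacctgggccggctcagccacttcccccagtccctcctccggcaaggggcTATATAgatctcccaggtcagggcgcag
Cox8b, chr7:140900447-140900696, minus strand: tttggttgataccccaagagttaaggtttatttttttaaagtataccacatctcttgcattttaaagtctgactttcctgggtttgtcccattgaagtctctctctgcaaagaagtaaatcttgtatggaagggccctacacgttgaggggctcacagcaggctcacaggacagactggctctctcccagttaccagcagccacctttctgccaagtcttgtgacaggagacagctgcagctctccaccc
Ppargc1a, chr5:51567726-51567975, minus strand: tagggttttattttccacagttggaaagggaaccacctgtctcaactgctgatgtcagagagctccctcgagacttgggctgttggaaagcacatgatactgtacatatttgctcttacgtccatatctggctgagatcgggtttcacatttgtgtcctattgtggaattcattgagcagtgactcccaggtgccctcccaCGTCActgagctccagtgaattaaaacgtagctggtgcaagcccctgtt
Dio2, chr12:90739039-90739288, minus strand: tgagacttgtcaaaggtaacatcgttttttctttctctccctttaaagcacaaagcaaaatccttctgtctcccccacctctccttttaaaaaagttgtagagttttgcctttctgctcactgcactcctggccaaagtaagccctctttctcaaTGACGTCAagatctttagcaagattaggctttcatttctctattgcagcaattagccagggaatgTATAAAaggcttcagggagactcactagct

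A window was matched for 8 of the 9 genes. The Dio2 window held the full element, from base -95 to base -88 before the start, which is made of a pair of overlapping cores on opposite strands, and a TATAAA from -30 to -25. The Ucp1 window held a core from -147 to -143 and a TATATA from -28 to -23. In the Ppargc1a window the core lay on the opposite strand, from -49 to -45, and therefore reads CGTCA in the printed line. No match was found in the windows of Cox8b, Cox7a1, Otop1, Prdm16 and Zic1. None of the 8 windows held TCAAGGTCA, a motif of estrogen-related receptors. Among 32851 promoter windows of the same length, 1.55% held TGACGTCA, 17.8% TGACG, 12.4% TATAAA, 5.25% TATATA and 0.387% TCAAGGTCA. The matches are descriptions of these windows only. The RefSeq start of Dio2 lies upstream of its GENCODE gene boundary given below.

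The libraries held 35375365 to 47370885 counts each. Levels between mice are given as CPM, counts scaled to library depth with TMM factors, and levels between genes as the deposited FPKM, which are fragments scaled by gene length and library depth. Of 15925 features with enough counts to be tested, 271 (1.7%) passed the study's thresholds of a fold change of at least 1.5 and an unadjusted p-value under 0.01 by edgeR's quasi-likelihood test. Of these 67 (0.421%) were higher and 204 (1.28%) lower after metformin, and 0 (0%) reached an adjusted p-value of 0.05, whereas DESeq2 gave 200 and limma-voom 0 at that level. By a chi-square of counts per feature, control mouse 3 lay nearer to metformin-treated mice 1 (134) and 3 (137) than to control mice 1 (312) and 2 (319). This measure uses raw counts and weighs abundant features most, such as the casein gene Csn2 (16276, 13528 and 31.1 CPM in control mice 1 to 3). Without control mouse 3 the count past the thresholds was 666, of which none was a member. Whether its label is right could not be settled from these data, and it was kept as labelled. Without it, the log2 fold change was 0.66 for Ucp1, 0.020 for Cidea, 0.096 for Cox7a1, 0.28 for Cox8b, 0.20 for Otop1, -0.17 for Ppargc1a, 1.0 for Dio2, 0.042 for Prdm16 and -2.12 for Zic1.

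Ucp1 (ENSMUSG00000031710, chr8:83290352-83298452, GRCm38) was the most variable member. Control mice 1, 2 and 3 had 1544, 188 and 244 CPM, and metformin-treated mice 1, 2 and 3 had 55.7, 3414 and 630 CPM. The highest and the lowest mouse were thus both in the metformin group. The range was 8.22-fold within the controls and 61.3-fold within the metformin group, and in its range over the 6 mice Ucp1 stood 65th of the 15925 tested features. Mean levels were 659 ± 767 CPM in controls and 1366 ± 1796 CPM after metformin (SD, n = 3 each). The log2 fold change of metformin over control was 1.05 (SE 1.31, 95% interval -1.99 to 4.09, adjusted p = 0.859 by edgeR), and an exact two-sided permutation test of mean log2 CPM gave p = 1, where 0.1 is the smallest p that 3 mice against 3 allow. The direction rested on metformin-treated mouse 2, without which the log2 fold change was -0.94, and without control mouse 1 it grew to 2.66.

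**Figure D1:**
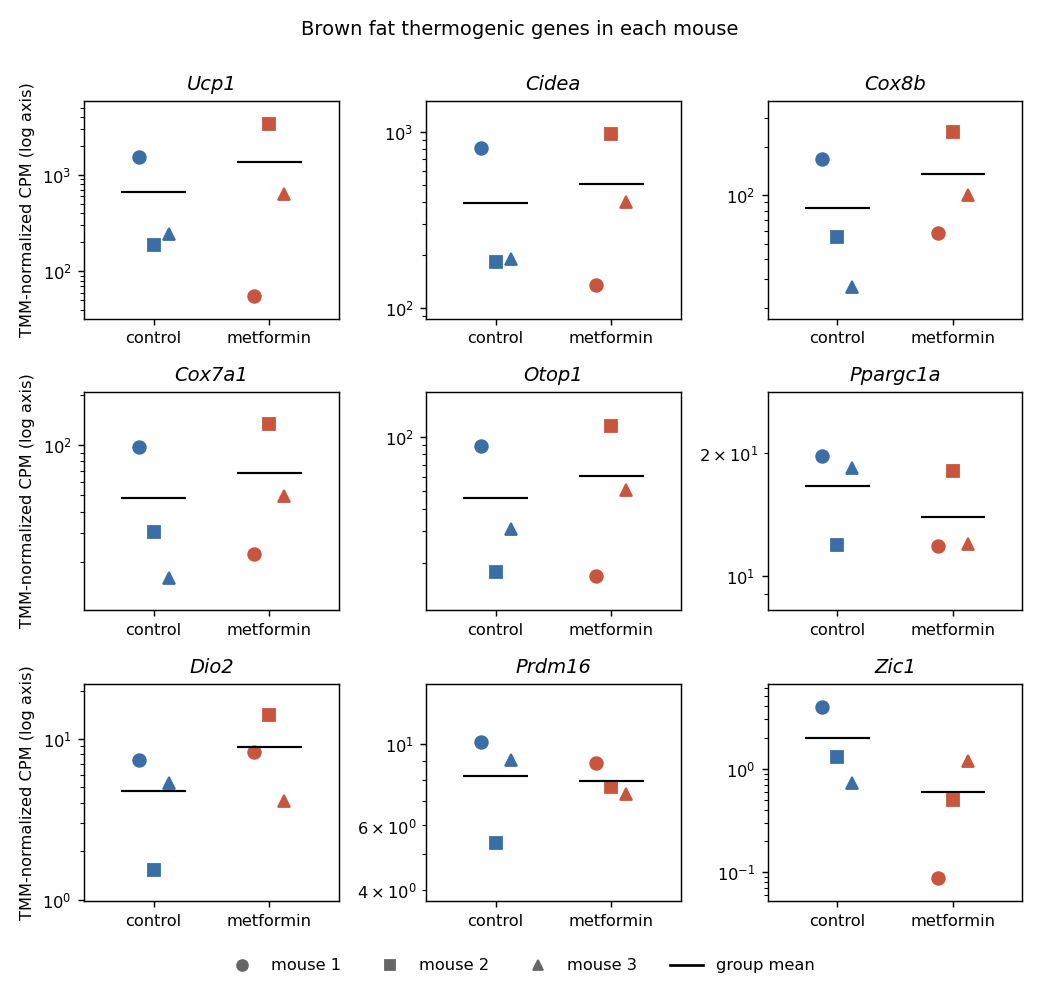
TMM-normalized CPM (log axes, which differ between panels) of the 9 brown fat thermogenic genes in 3 control (blue) and 3 metformin-treated (red) mice, with mouse number as the symbol and the group mean as a bar. The 2 groups overlap in every panel, and in the first 5 panels metformin-treated mouse 2 is the highest and control mouse 1 the next.

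Cidea (ENSMUSG00000024526, chr18:67343604-67367785) encodes a lipid droplet protein that is abundant in brown adipocytes. It was measured at 809, 183 and 189 CPM in control mice 1 to 3 and at 134, 972 and 401 CPM after metformin (mice 1 to 3). The order of the highest mice was that of Ucp1, with a narrower range of 7.25-fold. Group means were 394 ± 360 and 502 ± 428 CPM, with a log2 fold change of 0.35 (SE 0.80, 95% interval -1.51 to 2.22, adjusted p = 0.928 by edgeR). Without metformin-treated mouse 2 the log2 fold change was -0.56.

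Cox8b and Cox7a1 encode subunit isoforms of cytochrome c oxidase, the last complex of the respiratory chain, that are found in brown fat and in striated muscle. Cox8b (ENSMUSG00000025488, chr7:140898945-140900446) was at 168, 54.9 and 26.7 CPM in control mice 1 to 3 against 57.8, 246 and 99.6 CPM in metformin-treated mice 1 to 3. Cox7a1 (ENSMUSG00000074218, chr7:30184144-30186078) was at 98.0, 30.4 and 16.1 CPM in the controls and at 22.4, 133 and 49.7 CPM after metformin, in the same mouse order. Both were lowest in control mouse 3, unlike Ucp1 and Cidea, which were lowest in metformin-treated mouse 1. The log2 fold change was 0.70 for Cox8b (SE 0.73, 95% interval -1.0 to 2.39, adjusted p = 0.837 by edgeR). For Cox7a1 it was 0.51 (SE 0.78, 95% interval -1.31 to 2.32, adjusted p = 0.886 by edgeR). Leaving out metformin-treated mouse 2 gave -0.077 for Cox8b and -0.42 for Cox7a1, and leaving out control mouse 1 gave 1.72 and 1.56, neither past the thresholds.

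Otop1 (ENSMUSG00000051596, chr5:38275972-38304217) encodes a proton channel known from sour taste cells and the inner ear, and its RNA is also a marker of brown fat. Control mice 1 to 3 had 88.6, 17.8 and 30.6 CPM and metformin-treated mice 1 to 3 had 16.8, 115 and 50.7 CPM, again highest in metformin-treated mouse 2 and control mouse 1. The log2 fold change was 0.41 (SE 0.75, 95% interval -1.34 to 2.17, adjusted p = 0.907 by edgeR), and without metformin-treated mouse 2 it was -0.44.

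Dio2 (ENSMUSG00000007682, chr12:90724552-90738438) encodes the deiodinase that converts thyroxine to the active thyroid hormone inside the brown adipocyte. It was at 7.40, 1.53 and 5.30 CPM in control mice 1 to 3 against 8.34, 14.1 and 4.10 CPM in metformin-treated mice 1 to 3. Metformin-treated mouse 2 was again the highest, but metformin-treated mouse 1, the lowest for Ucp1, came next. The means were 4.74 ± 2.98 and 8.85 ± 5.03 CPM, with a log2 fold change of 0.91 (SE 0.62, 95% interval -0.54 to 2.35, adjusted p = 0.767 by edgeR). With any single mouse left out, its fitted log2 fold change stayed above 0 (0.40 to 1.38), never past the thresholds.

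Ppargc1a, Prdm16 and Zic1 encode regulators of the program, and the first and second of them had the narrowest ranges of the set. Ppargc1a (ENSMUSG00000029167, chr5:51454250-51567726), the coactivator PGC-1alpha that drives mitochondrial biogenesis, was at 19.6, 11.9 and 18.4 CPM in control mice 1 to 3 against 11.8, 18.1 and 12.0 CPM in metformin-treated mice 1 to 3. Its range of 1.66-fold was below the median range of all tested features (1.89-fold). Metformin over control gave a log2 fold change of -0.25 (SE 0.26, 95% interval -0.86 to 0.36, adjusted p = 0.836 by edgeR).

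Prdm16 (ENSMUSG00000039410, chr4:154316125-154636873), a zinc finger coregulator that sets brown adipocyte identity, was at 10.1, 5.38 and 9.07 CPM in control mice 1 to 3 against 8.87, 7.65 and 7.33 CPM in metformin-treated mice 1 to 3. The metformin values lay within the range of the controls. Its log2 fold change was -0.04 (SE 0.28, 95% interval -0.68 to 0.60, adjusted p = 0.977 by edgeR).

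Zic1 (ENSMUSG00000032368, chr9:91358058-91365810), a zinc finger factor used to tell classical dorsal brown fat from beige fat, was the lowest member, with 129, 65 and 30 counts in control mice 1 to 3 and 4, 21 and 48 counts in metformin-treated mice 1 to 3. In CPM these were 3.93, 1.3 and 0.733 against 0.0889, 0.505 and 1.2. Its order of mice differed from that of Ucp1, with control mouse 1 highest, control mouse 2 next and metformin-treated mouse 2 the last but one. The log2 fold change of -1.73 was the largest of the set in size (SE 0.93, 95% interval -3.89 to 0.43, unadjusted p = 0.102 and adjusted p = 0.726 by edgeR). Unadjusted p was 0.0285 by limma-voom with sample weights and 0.0384 by edgeR without metformin-treated mouse 3, neither under 0.01. The difference was smaller elsewhere, with a log2 fold change of -0.77 without control mouse 1 and of -0.26 on log2 FPKM with a pseudocount of 1. Zic1 shares 60 of its 5693 exonic bases with Zic4 on the opposite strand, Prdm16 109 of 9321 with B230104I21Rik and Dio2 100 of 5815 with Gm26512, and since the strand setting of the counting is not given, reads in those bases cannot be assigned to a gene.

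**Figure D2:**
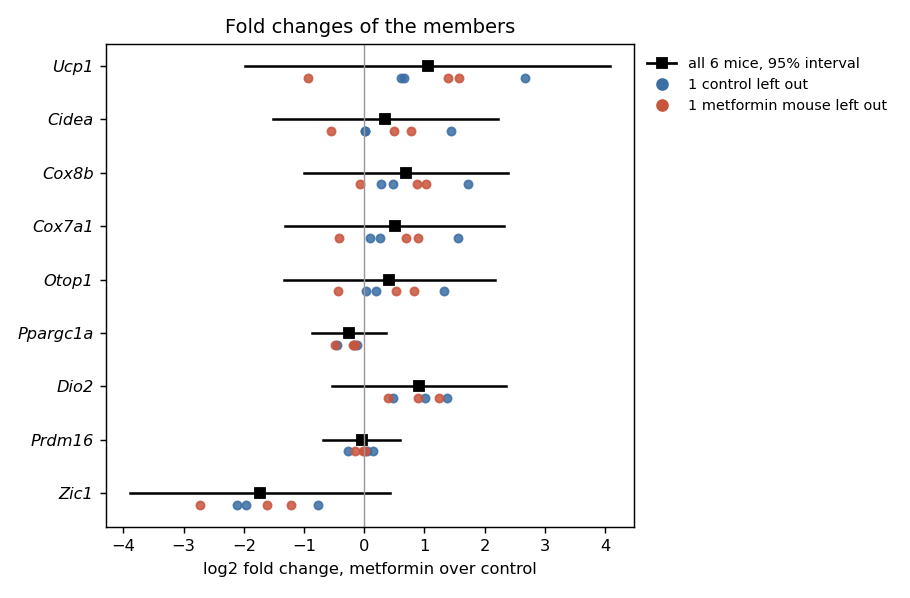
Log2 fold change of metformin over control for each member by edgeR's quasi-likelihood test, with its 95% interval from all 6 mice (black) and the values with 1 control (blue) or 1 metformin-treated mouse (red) left out. All 9 intervals include 0, and for Ucp1, Cidea, Cox8b, Cox7a1 and Otop1 the value without metformin-treated mouse 2 lies below 0.

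For the set as a whole, 6 genes had a fitted value above 0 and 3 below, with a median log2 fold change of 0.41, beside 51.3% above 0 and a median of 0.01 over all tested features. By edgeR, 0 of 9 passed the thresholds (background 1.7%) and 0 had an unadjusted p under 0.05 (background 7.53%). DESeq2 and limma-voom also placed 0 of 9 past the thresholds, with 0 and 1 at an unadjusted p under 0.05. The groups did not overlap for 0 of 9 members and for 13.2% of all features. These are counts over 3 mice a group, and the intervals above leave room for changes of several fold in either direction in Ucp1.

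Several members shared an order of mice. Metformin-treated mouse 2, control mouse 1 and metformin-treated mouse 3 were the 3 highest, in that order, for Ucp1 and for 4 of the other 8 members, and for 4.55% of all tested features. Relative to each gene's own mean over the 6 mice, log2 CPM of Ucp1 spanned 5.94, whereas that of Cidea, Cox7a1, Cox8b and Otop1 spanned 2.77 to 3.20. In all, 5 of 9 members ranged at least 8-fold (Ucp1, Zic1, Dio2, Cox8b and Cox7a1), against 6.1% of all features. In bulk tissue, fewer cells of a type and less RNA per cell cannot be told apart.

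**Figure D3:**
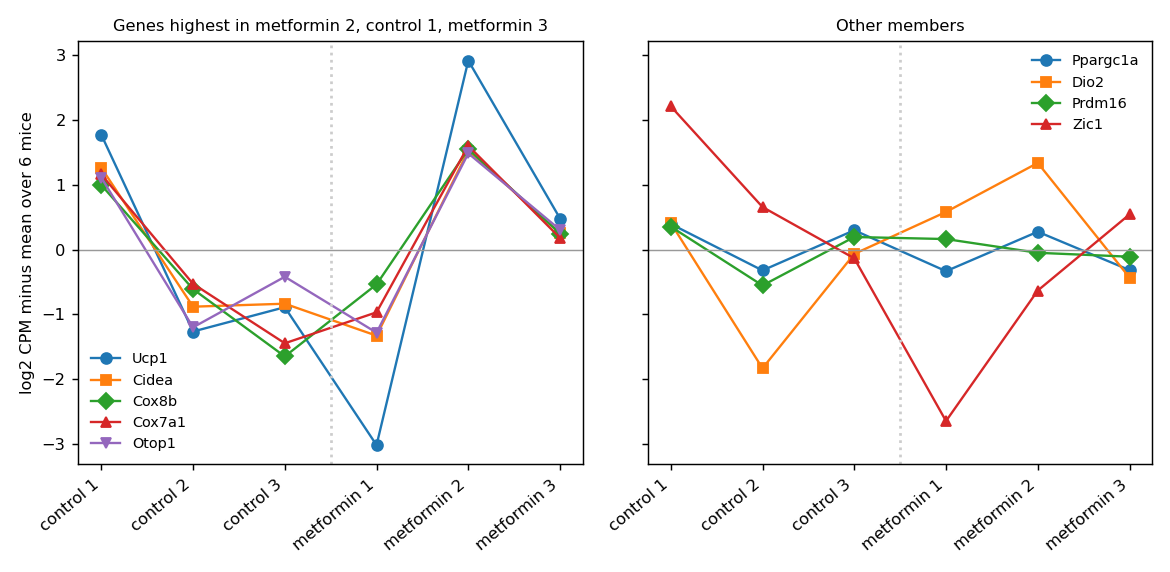
Log2 CPM of each member minus its mean over the 6 mice, with Ucp1, Cidea, Cox8b, Cox7a1 and Otop1 on the left and the other 4 genes on the right, and a dotted line between the control and the metformin-treated mice. The 5 genes on the left peak in control mouse 1 and metformin-treated mouse 2, with the widest span for Ucp1 (5.94), whereas Ppargc1a and Prdm16 stay near 0.

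Per length, the members fell into levels that differed widely. Ucp1 was at 816, 111 and 153 FPKM in control mice 1 to 3 and at 30.9, 1715 and 380 FPKM in metformin-treated mice 1 to 3, which placed it from 27th of all features in metformin-treated mouse 2 to 1955th in metformin-treated mouse 1. Cidea spanned 104 to 686 FPKM, Cox8b 76.3 to 562, Cox7a1 41.1 to 274 and Otop1 4.86 to 30.1. Ppargc1a (1.67 to 3.05 FPKM), Dio2 (0.253 to 1.99), Prdm16 (0.609 to 1.09) and Zic1 (0.0113 to 0.644) were far lower. Their ranges overlapped between neighbours in that order, except that Otop1 lay wholly below Cox7a1 and above Ppargc1a, and Zic1 overlapped only Dio2 and Prdm16.

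The order at the top changed between mice. In control mouse 1 and metformin-treated mice 2 and 3, Ucp1 was above Cidea in FPKM, with ratios of 1.36, 2.5 and 1.12. In control mice 2 and 3 the ratio was 0.731 and 0.919, and in metformin-treated mouse 1 it was 0.296, with Cox8b (146 FPKM), Cidea (104) and Cox7a1 (50.9) all above Ucp1 (30.9). Ucp2, a relative of Ucp1 that is expressed in many cell types, gave an FPKM ratio of Ucp1 to Ucp2 of 10.9, 0.988 and 2.02 in control mice 1 to 3 and of 0.517, 26.9 and 4.63 in metformin-treated mice 1 to 3. Ucp1 was thus below Ucp2 in control mouse 2 and metformin-treated mouse 1 only.

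**Figure D4:**
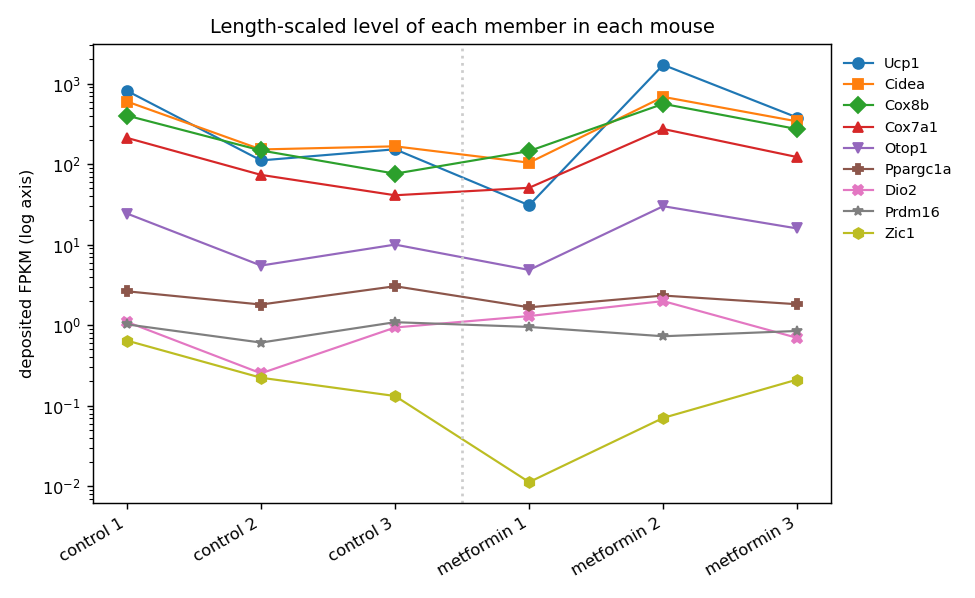
Deposited FPKM (log axis) of the 9 members in each of the 6 mice. Ucp1 is the highest member in control mouse 1 and metformin-treated mice 2 and 3, and the fourth at 30.9 FPKM in metformin-treated mouse 1, while Zic1 is the lowest in every mouse.

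The tissue-specific oxidase isoforms were compared with their widely expressed counterparts within each mouse. The FPKM ratio of Cox7a1 to Cox7a2 was 0.767, 0.399 and 0.28 in control mice 1 to 3 and 0.222, 0.774 and 0.526 in metformin-treated mice 1 to 3. For Cox8b to Cox8a it was 0.481, 0.257 and 0.170 and then 0.196, 0.587 and 0.331. Both ratios were highest in control mouse 1 and metformin-treated mouse 2, and both stayed below 1. Cox6a2, an isoform shared by muscle and brown fat, gave ratios to Cox6a1 of 0.201, 0.294 and 0.304 in the controls and 0.154, 0.194 and 0.166 after metformin, without that order. Of Cidea to Cidec, the related droplet protein of white adipocytes, the ratio was 0.977, 0.324 and 0.227 in the controls and 0.132, 0.795 and 0.397 after metformin.

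Genes with the profile most like each member over the 6 mice were ranked by the root mean square difference of centred log2 CPM among annotated features at 1 CPM or more. For Ucp1 the nearest were Cpn2 (0.40), Slc27a2 (0.57), Kng2 (0.65), Gk (0.72), Olig1 and Elovl3 (0.83 each), Fam131c (0.87), Acot11 and Cpt1b (0.90 each) and Chrna2 (0.92). Cpn2 ran at 11.8, 1.04 and 2.27 CPM in control mice 1 to 3 against 0.267, 13.6 and 4.76 CPM in metformin-treated mice 1 to 3. The nearest to Cidea were Letmd1 (0.10), a mitochondrial protein of brown adipocytes, Acaa2 (0.19), an enzyme of fatty acid oxidation, and Otop1 (0.23). Cox8b and Cox7a1 were at 0.21 from each other, and both had Kcnk3 and Igsf21 among their nearest 3. Otop1 was nearest to Cpt1b and Pank1 (0.18 each) and Letmd1 (0.21).

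The remaining members lay near other genes. Ppargc1a was nearest to Gpcpd1 (0.04), Rgs5 (0.07) and Zfp106 (0.08), and Prdm16 to Mpv17l and Peli2 (0.11 each) and Klf4 (0.12). Dio2 was nearest to Gsto2 (0.30), with C330018D20Rik and Tmem266 at 0.43 each. For Zic1 no feature came closer than 0.69 (Dnajc22 and Xlr4b), with Fbln1 at 0.71. All of these are likenesses over 6 libraries only, and several of the nearest genes stand on the list of brown adipocyte genes that follows.

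Among 20 further brown adipocyte genes, 14 had a fold change above 0 and 6 below (median log2 fold change 0.25), and 0 passed the thresholds in either direction by edgeR, with 2 at an unadjusted p under 0.05 (background 7.53%). Those were Eva1a, used as a brown adipocyte marker, with a log2 fold change of 0.80 (adjusted p = 0.661 by edgeR), and the creatine kinase Ckmt1 with -1.58 (adjusted p = 0.576 by edgeR). Ckmt1 was at 9.16, 20.5 and 4.23 CPM in control mice 1 to 3 and at 3.65 to 3.93 CPM after metformin. Unlike Ucp1, it was highest in control mouse 2, as were the epithelial markers Epcam and Elf5. The 3 highest mice were those of Ucp1, in that order, for 9 of the 20 (background 4.55%). At least 8-fold ranges were found for 8 of the 20 (background 6.1%). Slc27a2, a fatty acid transporter and acyl-CoA synthetase, was at 45.9, 5.74 and 9.75 CPM in control mice 1 to 3 against 4.82, 89.5 and 22.9 CPM in metformin-treated mice 1 to 3. Elovl3, a fatty acid elongase induced by cold in brown fat, differed in that control mouse 1 was the highest, with 211, 36.9 and 26.5 CPM in the controls and 12.1, 130 and 65.4 CPM after metformin. Their summed level was 985 to 3454 CPM in the controls and 664 to 4087 CPM after metformin.

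**Figure D5:**
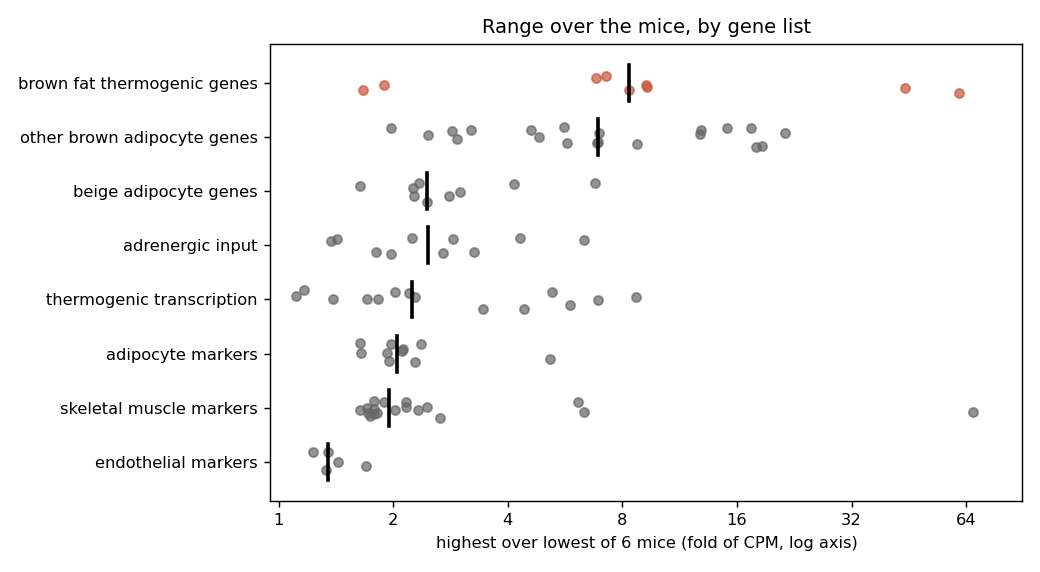
Highest over lowest CPM of the 6 mice (log axis) for each gene of the members (red) and of 7 other lists (grey), with the median of each list as a bar. The median is 8.30 for the members and 6.89 for the other brown adipocyte genes, against 2.04 for adipocyte, 1.95 for skeletal muscle and 1.35 for endothelial markers. The widest muscle marker, Myh7, ranges 66.8-fold, more than Ucp1 (61.3-fold).

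Beige adipocyte genes, expressed in brown-like cells of white depots, had 6 of 9 tested members above 0 and 3 below (median 0.15). By edgeR, 0 passed the thresholds and 1 had an unadjusted p under 0.05 (background 7.53%), Klhl13 (-0.71, adjusted p = 0.61). Their median range was 2.45-fold. Genes of the creatine and calcium cycles that make heat without UCP1 had 2 of 7 above 0 (median -0.17). By edgeR, 0 passed the thresholds and 1 had an unadjusted p under 0.05 (background 7.53%), the phosphatase gene Alpl (-0.40, adjusted p = 0.652).

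Among 10 genes of adrenergic input, 9 were above 0 and 1 below (median 0.33), and 1 passed the thresholds (higher background 0.421%). Adrb1, the beta-1 adrenergic receptor, was at 7.37, 7.24 and 6.28 CPM in control mice 1 to 3 against 12.4, 14.1 and 9.49 CPM in metformin-treated mice 1 to 3, without overlap. Its log2 fold change was 0.79 (SE 0.22, adjusted p = 0.539 by edgeR), and it passed the thresholds without metformin-treated mouse 3 (0.93) but not without any other mouse (0.66 to 0.83), nor by limma-voom (0.72). Adrb3, the beta-3 receptor typical of fat, was at 154 to 189 CPM in the controls and 193 to 219 CPM after metformin (log2 fold change 0.29, adjusted p = 0.746 by edgeR). Of the 10 genes, these 2 receptors alone did not overlap between the groups (background 13.2%). The adenylyl cyclase gene Adcy3 followed the mouse order of Ucp1, with 192 CPM in metformin-treated mouse 2, 89.8 in control mouse 1 and 30.2 to 51.8 in the others.

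Of 14 genes of thermogenic transcription, 10 were above 0 and 4 below (median 0.40), and 1 passed the thresholds (higher background 0.421%). Cebpa, a factor of terminal adipocyte differentiation, rose from 356, 347 and 312 CPM in control mice 1 to 3 to 686, 568 and 559 CPM in metformin-treated mice 1 to 3. This was a log2 fold change of 0.84 (SE 0.20, adjusted p = 0.539 by edgeR and 0.00103 by DESeq2), and Cebpa no longer passed without control mouse 1 (0.88), control mouse 2 (0.86) or metformin-treated mouse 1 (0.71). Rxrg, a retinoid X receptor, had a log2 fold change of 0.63 (adjusted p = 0.541 by edgeR) and fell just short of the threshold on the unadjusted p. Of the 14 genes, 4 did not overlap between the groups (background 13.2%). Cebpa and Rxrg were higher after metformin, whereas Zfp516 and Ehmt1 were lower. The log2 fold change was -0.298 for Zfp516 (adjusted p = 0.726 by edgeR) and -0.134 for Ehmt1 (adjusted p = 0.817 by edgeR). Ppargc1b, the close relative of Ppargc1a, did follow the mouse order of Ucp1, with 12.8 CPM in metformin-treated mouse 2, 10.7 in control mouse 1, 6.33 in metformin-treated mouse 3 and 2.21 to 3.96 in the others.

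A list of repressors of the brown program also held Foxc2 (0.47), which is not an established repressor. Of the 7 tested genes on this list, 5 were above 0 and 2 below (median 0.24), and the 2 below both passed the thresholds (lower background 1.28%). Rb1, the retinoblastoma protein, whose loss in mouse adipocytes favours brown features, was at 89.2, 125 and 95 CPM in control mice 1 to 3 against 67.1, 59.6 and 59.0 CPM in metformin-treated mice 1 to 3. Nrip1, the corepressor RIP140 that represses Ucp1 in mouse adipocytes, was at 76.9, 91.0 and 110 CPM in the controls and at 65.3, 57.3 and 53.6 CPM after metformin. Neither gene overlapped between the groups, and neither order of mice matched that of Ucp1. In all, 3 of the 7 did not overlap (background 13.2%). The third, Ctbp1, was higher after metformin (log2 fold change 0.24, adjusted p = 0.789 by edgeR). Ctbp1 was at 114 to 156 CPM in the controls and at 160 to 178 CPM after metformin. The log2 fold changes were -0.74 for Rb1 (SE 0.18) and -0.66 for Nrip1 (SE 0.18), each with adjusted p = 0.539 by edgeR, while DESeq2 gave an adjusted p of 0.0291 for Rb1 and 0.105 for Nrip1. Rb1 no longer passed without control mouse 2 (-0.57), metformin-treated mouse 2 (-0.71) or metformin-treated mouse 3 (-0.70), and Nrip1 passed without control mouse 1 (-0.78) but not without any other mouse (-0.78 to -0.51).

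Thyroid hormone handling, the pathway of Dio2, had 2 of 4 tested genes above 0 (median -0.00). By edgeR, 0 passed the thresholds and 1 had an unadjusted p under 0.05 (background 7.53%). Thra, a thyroid hormone receptor, was at 44.3 to 57.4 CPM in the controls and 67.3 to 68.9 CPM after metformin (log2 fold change 0.39, adjusted p = 0.642 by edgeR), and its counterpart Thrb at 19.4 to 29.2 CPM and 8.99 to 22.8 CPM (-0.81, adjusted p = 0.661 by edgeR). The other deiodinase genes Dio1 and Dio3 had at most 0 and 7 counts in any mouse and were not tested. Thermogenic signals and their receptors had 8 of 9 above 0 (median 0.09), and a list of paralogs of the members and isoforms of other oxidase subunits 10 of 12 (median 0.46), with 0 past the thresholds and 0 at an unadjusted p under 0.05 by edgeR in both lists.

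The levels of other cell types were read from marker lists. Adipocyte markers summed to 15156 to 17604 CPM in the controls and to 18526 to 24199 CPM after metformin. Of these, 10 of 10 had a fitted fold change above 0 (median 0.42). By edgeR, 0 passed the thresholds and 1 had an unadjusted p under 0.05 (background 7.53%), Plin1 (0.59, adjusted p = 0.661). The mean log2 CPM of these markers ranged by 0.73 over the mice, against 5.94 for Ucp1, and the difference between Ucp1 and this mean ranged by 5.98. Ucp1 thus ranged as widely relative to adipocyte markers as it did alone. The FPKM ratio of Ucp1 to the droplet protein Plin1 was 2.96, 0.424 and 0.351 in control mice 1 to 3 and 0.0737, 4.00 and 0.813 in metformin-treated mice 1 to 3.

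Skeletal muscle markers, a list that includes Cox6a2, which muscle shares with brown fat, moved partly with the thermogenic genes. They summed to 20954 to 23311 CPM in the controls and to 18029, 35982 and 25671 CPM in metformin-treated mice 1 to 3, so that the highest and the lowest mouse were those of Ucp1, with 14 of 18 above 0 (median 0.26) and 0 past the thresholds and 0 at an unadjusted p under 0.05 by edgeR. Their mean log2 CPM ranged by 1.24, and 1 of the 18 had the 3 highest mice in the order of Ucp1 (background 4.55%). At least 8-fold was the range of 1 of the 18 (background 6.1%), Myh7, which at 66.8-fold ranged more widely than Ucp1 (61.3-fold). Individual markers differed in control mouse 1. Mb, the myoglobin of oxidative fibres, was at 864, 349 and 616 CPM in the controls and at 145, 886 and 402 CPM after metformin, and Myh7, the slow fibre myosin, at 286, 14.7 and 85.2 CPM and at 4.29, 97.8 and 41.5 CPM, both with a fitted log2 fold change below 0 (-0.35 and -1.43). The fast fibre myosin Myh4 was lowest in control mouse 1, at 1486, 2049 and 2171 CPM in the controls and at 1978, 2799 and 2603 CPM after metformin, and Myl1 and Pvalb were lowest there too. Cox8b and Cox7a1 are also muscle genes, and the part of muscle RNA in their values was not tested.

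Epithelial markers summed to 17322 and 15337 CPM in control mice 1 and 2, to 1026 CPM in control mouse 3 and to 650 to 1011 CPM after metformin. Most of that gap was the casein gene Csn2, at 16276, 13528 and 31.1 CPM in control mice 1 to 3 and at 10.0 to 235 CPM after metformin. The other 9 markers summed to 1046, 1809 and 994 CPM in the controls and to 951, 638 and 776 CPM in the metformin group. All 10 were below 0 (median -0.76), of which 2 passed the thresholds (lower background 1.28%), Elf5 (-2.31, adjusted p = 0.539 by edgeR and 0.0108 by DESeq2), a regulator of alveolar cells, and the cadherin gene Cdh1 (-0.85). Elf5 overlapped between the groups, with control mouse 3 at 29.8 CPM against 25.8 to 35.5 CPM after metformin. Of the 10 markers, Cdh1 alone did not overlap (background 13.2%). With 1 mouse left out, Elf5 passed only without control mouse 3 (-2.79; otherwise -2.44 to -1.71) and Cdh1 only without control mouse 1 (-1.04; otherwise -0.93 to -0.53). Neither sum followed the order of Ucp1. Endothelial markers summed to 490 to 647 CPM in the controls and 494 to 599 CPM after metformin, leukocyte markers to 75.8 to 81.5 and 40.1 to 114 CPM, and nerve and Schwann cell markers to 110 to 165 and 75.9 to 109 CPM, with 2, 1 and 2 of 5 above 0 (medians -0.02, -0.12 and -0.25) and 0 of 5 past the thresholds in each list by edgeR. At an unadjusted p under 0.05 there were 0, 0 and 2 of 5 (background 7.53%). Th, the enzyme of noradrenaline synthesis in sympathetic nerves, was at 0.133 to 0.639 CPM over the 6 mice. Dbh had 0 counts in every mouse, and the sympathetic innervation of the gland was not measured. The part of these cell types in the spread of the thermogenic genes was not tested. Over all of these lists, limma-voom placed no gene past the thresholds beyond Cebpa, Rb1, Elf5 and the casein gene Csn2, and DESeq2 added Ckmt1, Rxrg, Csn2 and the nerve and Schwann cell markers Ngfr and Sox10 to the genes called by edgeR.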

How the data were processed

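Whole numbers of reads per gene (counts) and FPKM values were deposited by the authors for each of the 6 mice. Per the labels and the study's methods, libraries were poly(A)-selected, and trimmed paired reads were mapped to GRCm38. The submitters' processing notes name HISAT2, StringTie and the build mm10. For the counting tool and its strand setting, the sources used here give nothing.

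Counts were fitted with edgeR 4.0.16 (R 4.3.3; TMM factors, filterByExpr, quasi-likelihood test, Benjamini-Hochberg adjustment over 15925 features, prior count 2 for log2 CPM). Intervals are 95% intervals of the coefficient. FPKM served for levels between genes and, as log2 of FPKM plus 1 or 0.1, as an alternative beside DESeq2 1.42.0 and limma 3.58.1. Gene positions are those of GENCODE vM21 (GRCm38), and promoter windows those of RefSeq (GRCm38.p6).

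All 9 members are named. Of each other list, up to 2 genes per direction with the smallest edgeR p-value and the defining markers of other cell types were open to naming. Ppargc1b, Adcy3, Adrb3, Ctbp1, Dio1, Dio3, Mb, Myh7, Myh4, Myl1, Pvalb, Csn2 and the genes used in FPKM ratios were added after their values were seen. The genes most like each member follow a fixed number per member. The members, the lists, the motifs and the 8-fold mark were chosen with earlier results of these data known. The FPKM columns carry no error of their own, and no sequencing batch was given in the labels.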

Additional observations from a re-analysis of the deposited data

How the results depend on the processing

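Across 17 alternatives, 0 members passed the thresholds in any. With limma-voom and sample quality weights the log2 fold change turned for Ucp1 (-0.99), Cidea (-0.48), Cox7a1 (-0.24), Otop1 (-0.27) and Prdm16 (0.039). Leaving out each mouse in turn gave -0.94 to 2.66 for Ucp1, -0.56 to 1.44 for Cidea, -0.42 to 1.56 for Cox7a1, -0.077 to 1.72 for Cox8b, -0.44 to 1.33 for Otop1, -2.73 to -0.77 for Zic1 and -0.27 to 0.14 for Prdm16. Ppargc1a, Dio2 and Zic1 kept their direction in every alternative that tested them (Zic1 failed the filter of 10 counts in every mouse). On log2 FPKM, Ucp1 had 0.19 with a pseudocount of 1 and 0.18 with 0.1, and its adjusted p ranged from 0.685 to 1 over the alternatives. Cases of limma-voom turning a direction have a cause that was not tested. Mice with the same number did not deviate together (correlations -0.35, -0.14 and -0.01 for numbers 1, 2 and 3), so the numbers were not taken as pairs. With the replicate block Ucp1 had 0.93 and Prdm16 0.0013, and 118 of all features passed the thresholds in place of 271. That number was 519 by DESeq2, 63 on unfiltered log2 FPKM, 165 on filtered log2 FPKM with a pseudocount of 1 and 107 to 666 with 1 mouse left out. An adjusted p under 0.05 was reached by 200 features in DESeq2, 1 on unfiltered log2 FPKM and 96 without control mouse 3, none a member. Of the 6 listed genes past the thresholds (Cebpa, Adrb1, Rb1, Nrip1, Elf5 and Cdh1), none passed with the block, Cebpa and Rb1 did on filtered log2 FPKM, and Cebpa alone did on unfiltered log2 FPKM. Zic1 rested on 4 to 129 counts a mouse.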

Other observations

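Unannotated transcribed features of the count table, which carry no gene name, also had profiles near those of the members. The one nearest to Ucp1 (root mean square difference of centred log2 CPM 0.59) was at 2.98, 0.241 and 0.440 CPM in control mice 1 to 3 against 0.222, 12.4 and 1.13 CPM in metformin-treated mice 1 to 3. Another was nearest of its kind to both Otop1 (0.13) and Cidea (0.21), at 3.59, 0.823 and 1.25 CPM in the controls and at 0.578, 5.08 and 2.33 CPM after metformin. Both were highest in metformin-treated mouse 2 and next highest in control mouse 1, as were the genes they resembled. The position and sequence of these features were not analysed here.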
